A study of Mus musculus with 2 samples.

Results

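OLCs-1 are a class of osteolineage stromal cells of fetal mouse bone marrow, and their values at E18.5 are described here. The members are the cells that the study's supplementary cell list puts in cluster 3 of its bone marrow stromal cells (BMSCs), joined by barcode to the wild-type count table. They numbered 202 of the 1649 listed E18.5 BMSCs, or 12.2% (Clopper-Pearson 95% interval 10.7 to 13.9), in a library of 5998 barcodes. The other 1447 listed BMSCs served as the comparison set, of which 940 were eBMSC-1, 231 mitotic BMSCs, 149 eBMSC-2, 102 OLCs-2 and 25 cells of the adult-enriched aBMSC class.

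Femoral bone marrow of E18.5 embryos was crushed, digested with collagenase and depleted of lineage-committed haematopoietic cells, and the remaining cells were profiled by BD Rhapsody whole-transcriptome sequencing. This method tags each captured transcript with a unique molecular identifier (UMI). A wild-type (WT, C57BL/6) library and a Bmx-CreER Wls library (C57BL/6) were made, 1 per condition. In the latter, an inducible Cre driven by Bmx, a gene of arterial endothelial cells, deletes Wls, which is needed for Wnt secretion, after tamoxifen given to the pregnant dams. The sources used here do not give the number of embryos pooled, or say whether the wild-type embryos received tamoxifen. With 1 library per condition no test was made, and every interval below covers counting error only.

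The counts summed to 22708005 UMIs in the WT library and 24704991 in the Bmx-CreER Wls library, with medians of 3128 and 3067 UMIs in the 5736 and 6620 cells that passed the filter. OLCs-1 held 727637 UMIs, with a median of 3362.5 UMIs (885 to 9399) and 1756 genes per cell. The other BMSCs had a median of 3201 UMIs and 1577 genes. Among them, the 25 aBMSC cells had lower medians of 1358 UMIs and 648 genes, and a higher median mitochondrial share of 21.7%. The median mitochondrial share was 6.02% in OLCs-1 and 4.07% in the other BMSCs. Its part in the results was not tested beyond rerunning them with fewer cells or genes. The Cxcl12 ratio given below was 16.7 in cells with at least 1000 UMIs and under 10% mitochondrial share. It was 16.8 with mitochondrial and haemoglobin genes left out of the totals. Barcodes shared by the libraries numbered 49, of which 2 belonged to OLCs-1.

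Osteolineage cells arise from skeletal stem and progenitor cells and mature into osteoblasts, which deposit a matrix of type I collagen and mineralise it. In the adult marrow, reticular stromal cells that express the leptin receptor secrete Cxcl12, the chemokine that retains haematopoietic stem cells, and Kitl, the ligand of the Kit receptor. Matrix metalloproteinases such as Mmp13, a collagenase, remodel cartilage and bone while the marrow cavity forms.

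The 5 genes that mark OLCs-1 were checked first. Because the study grouped the cells by their expression, any difference in level between OLCs-1 and other BMSCs is partly fixed by that grouping and is given as a description. A level gives how many of every 1000000 UMIs in a class belong to the gene (CPM). Levels are not per length, so they are compared within a gene only, and ratios are ratios of these levels. Mmp13 (GRCm38 chromosome 9, 7272514 to 7283331) had 6174 UMIs in OLCs-1, or 8485 CPM, and was detected in 172 of 202 cells (85.1%). In the other BMSCs it had 130 CPM and was detected in 2.14% of cells, a ratio of 65.5 (95% interval 60.4 to 71.1). Of its 660 UMIs in the other BMSCs, 494 lay in the 25 aBMSC cells and 412 in 1 of them, and the ratio was 254 (218 to 298) without the aBMSC cells and 174 (153 to 198) without that cell. Tnc (chromosome 4, 63959785 to 64047015), which encodes the matrix glycoprotein tenascin C, was detected in 194 cells (96.0%), with a ratio of 13.8. Wif1, a secreted Wnt inhibitor, had a ratio of 8.36, and Alpl, the alkaline phosphatase of mineralising cells, one of 7.46. Limch1, an actomyosin regulator, had a ratio of 5.33. All 5 were therefore higher in OLCs-1 than in the other BMSCs. Of OLCs-1, 99.0% held a UMI of at least 1 of them, compared with 51.8% of the other BMSCs. The share was also 95.1% in OLCs-2 and 66.3% in listed chondrocytes, so it did not set OLCs-1 apart from OLCs-2.

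Shares of cells with a UMI depend on depth, so each cell was also thinned to 1000 UMIs. Thinned, Mmp13 was detected in 79.0% of OLCs-1, 1.13% of the other BMSCs and 1.07% of listed chondrocytes. Tnc was detected in 88.5% of OLCs-1, but also in 19.9% of the other BMSCs and 27.0% of chondrocytes. Wif1 reached 25.5% in OLCs-1 and 23.8% in chondrocytes, whose levels of 372 and 309 CPM were also near each other. OLCs-2 held Wif1 in 53.9% of cells, or 16.5% when thinned, at 173 CPM. Wif1 was thus also frequent in cartilage cells and OLCs-2. Limch1 was detected in 33.5% of thinned OLCs-1, 6.32% of thinned chondrocytes and 11.6% of thinned endothelial cells. Alpl was detected in 43.5% of thinned OLCs-1 and 4.86% of the other BMSCs, but also in 44.3% of OLCs-2 and 46.7% of 15 aBMSC cells.

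**Figure D1:**
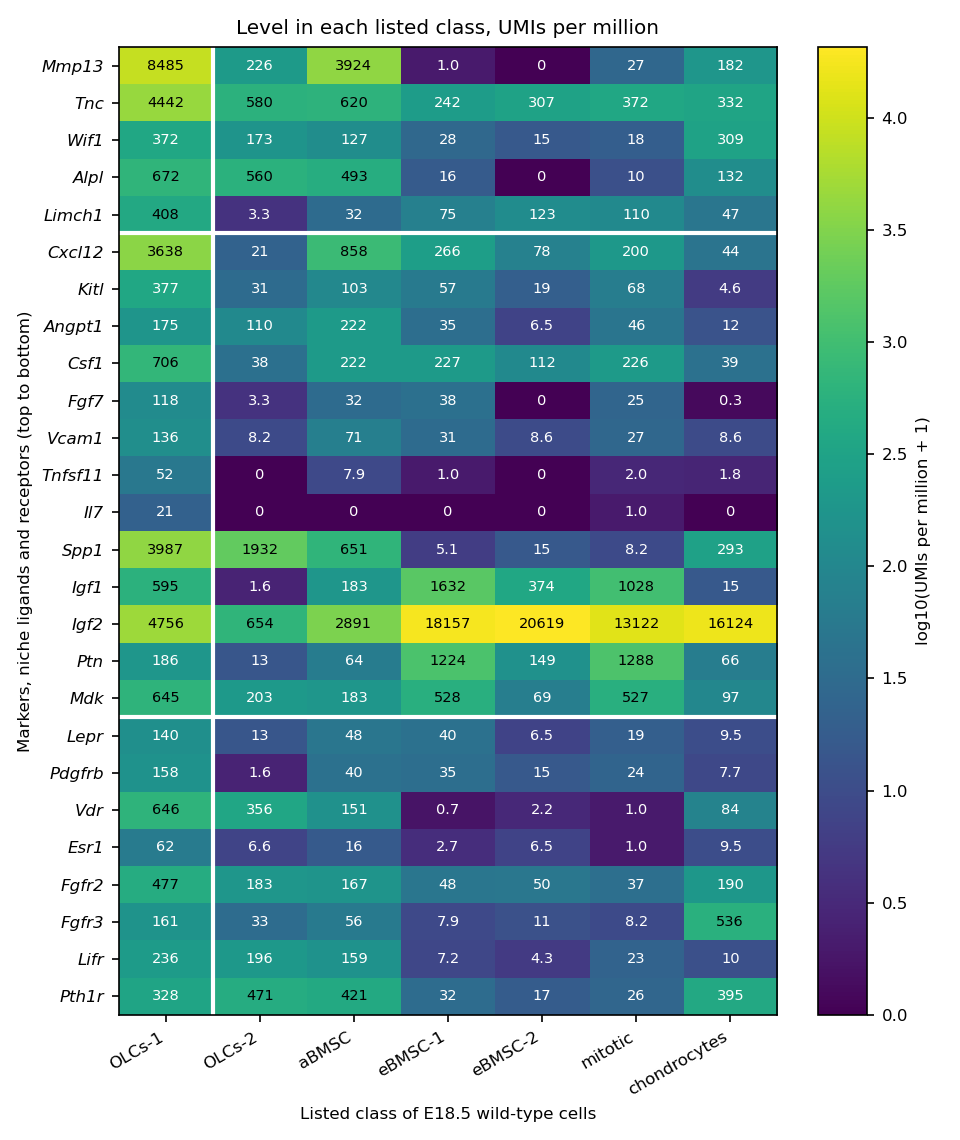
Level of each gene (rows) in CPM in 7 listed classes of the E18.5 wild-type library (columns), printed in each cell and coloured on a log10(value + 1) scale. The white lines set off the 5 markers, the niche ligands and the receptors, and OLCs-1. Cxcl12 stands at 3638 CPM in OLCs-1 and at 21 in OLCs-2, whereas Igf2 stands at 4756 in OLCs-1 and at 18157 in eBMSC-1.

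Among 30 ligands with roles in the haematopoietic niche, 15 reached 50 UMIs over both sets. Of these, 7 were at least 2-fold higher in OLCs-1 and 4 at least 2-fold lower. Over all 9169 genes that reached this minimum, 818 (8.92%) were at least 2-fold higher and 1026 (11.2%) at least 2-fold lower, with a median ratio of 1.11 compared with 1.53 over the ligands. These shares over all genes stand beside the counts of every list set against the other BMSCs below. The higher ligands were Cxcl12, Spp1, Kitl, Vcam1, Fgf7, Csf1 and Angpt1, and the lower ones were Igf2, Tnfrsf11b, Ptn and Cxcl14.

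Cxcl12 (chromosome 6, 117168535 to 117181367) was detected in 163 OLCs-1 (80.7%), with a median of 7 UMIs and a maximum of 77 per cell. Its level ratio to the other BMSCs was 16.4 (15.3 to 17.6). At least 10 Cxcl12 UMIs were found in 88 OLCs-1 and at least 20 in 50. In thinned cells the share with a Cxcl12 UMI was 66.5% in OLCs-1, 17.9% in the other BMSCs and 4.07% in chondrocytes.

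Kitl was detected in 101 OLCs-1 (50%), and its level ratio to the other BMSCs was 7.03 (5.92 to 8.34). Both Kitl and Cxcl12 were found in 93 OLCs-1, Kitl without Cxcl12 in 8 and neither in 31. Csf1, the growth factor of macrophages and osteoclasts, stood at 706 CPM and was 3.64 times as high as in the other BMSCs (3.27 to 4.06). Tnfsf11, which encodes the osteoclast differentiation factor RANKL, fell short of the minimum over both sets, with 38 UMIs in 32 OLCs-1 and 6 UMIs in all other BMSCs. Its level was 52.2 CPM (37.0 to 71.7) in OLCs-1 and 1.18 (0.432 to 2.56) in the other BMSCs. Tnfrsf11b, the soluble decoy receptor of RANKL, had the opposite order, with a ratio of 0.249 (0.128 to 0.441). Vcam1, an adhesion molecule for blood cells, had a ratio of 5.14, and Fgf7, a fibroblast growth factor, one of 4.24.

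Other ligands were lower in OLCs-1 or within 2-fold. Igf2, a fetal growth factor, had 4756 CPM in OLCs-1 and a ratio of 0.318 (0.307 to 0.329) to the other BMSCs. Ptn, encoding pleiotrophin, had a ratio of 0.192 (0.161 to 0.228), and the chemokine Cxcl14 had 0 UMIs in OLCs-1. Mdk and Gas6 lay within 2-fold, at 1.47 and 1.53, and Igf1 was near the 2-fold bound at 0.508 (0.459 to 0.560).

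Of 26 receptors on a second list, 22 reached the minimum, 10 of them at least 2-fold higher and 3 at least 2-fold lower in OLCs-1. Esr1, the oestrogen receptor alpha, had a ratio of 17.5 (9.93 to 32.1) at 61.8 CPM. Vdr, the vitamin D receptor, had a ratio of 13.8 (11.8 to 16.2) and was detected in 148 OLCs-1 (73.3%). The fibroblast growth factor receptors differed among themselves, with Fgfr3 at 13.0, Fgfr2 at 7.34 and Fgfr1 at 0.860. Platelet-derived growth factor receptors did as well, since Pdgfrb had a ratio of 5.88 and Pdgfra one of 0.635. Lepr, the leptin receptor, was detected in 60 OLCs-1 (29.7%) and had a ratio of 4.64 (3.58 to 6.00). Pth1r, the receptor of parathyroid hormone, had a ratio of 3.59. Against OLCs-2 alone, 9 of 17 receptors compared were at least 2-fold higher and 0 at least 2-fold lower. Vdr and Pth1r lay within 2-fold of their OLCs-2 levels. Ackr3, the scavenging receptor of Cxcl12, was lower, at 0.107 (0.0551 to 0.188).

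A list of 26 genes of leptin receptor stromal cells was drawn partly from the study's own marker table, so its direction is not independent evidence. Of its 22 genes that reached the minimum, 14 were at least 2-fold higher in OLCs-1 and 2 at least 2-fold lower, with a median ratio of 4.89. Pappa, a protease that cleaves IGF-binding proteins, had a ratio of 17.4, Lpl, the lipoprotein lipase, one of 15.8, and Foxc1, a transcription factor of reticular niche cells, one of 7.23. Hp, encoding haptoglobin, had 73 UMIs in OLCs-1 and 3 in the other BMSCs, a ratio of 170 (56.1 to 845). Ebf1 and Ebf3, further transcription factors of these cells, had ratios of 1.65 and 0.790. Adipoq, a gene of adult adipogenic stromal cells, had no UMI in OLCs-1 or anywhere else in the WT library.

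**Figure D2:**
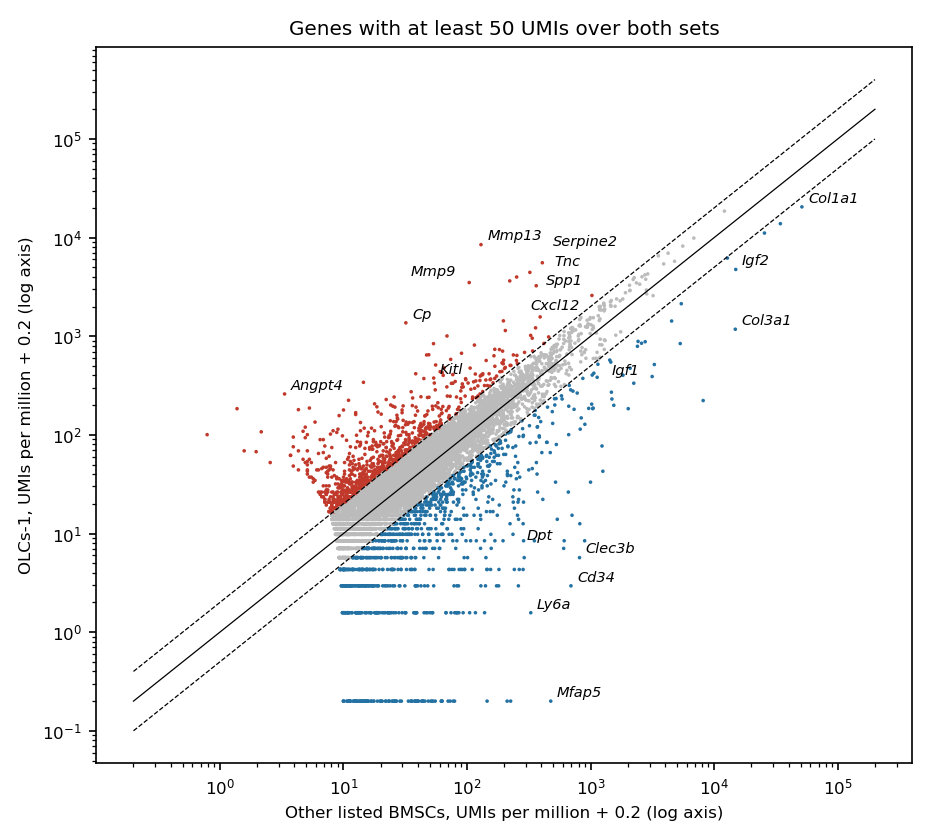
Level of 9169 genes in the other listed BMSCs (x axis) and in OLCs-1 (y axis), in CPM plus 0.2 on log axes. Red points were at least 2-fold higher in OLCs-1 (818 genes), blue points at least 2-fold lower (1026 genes), the solid line marks equal levels and the dashed lines 2-fold differences. Mmp13, Cp and Angpt4 lie far above the lines and Clec3b, Cd34, Ly6a and Mfap5 far below.

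Among all genes with at least 200 UMIs over both sets, Angpt4, a ligand of the endothelial receptor Tie2, had the highest ratio to the other BMSCs. It had 189 UMIs in 82 OLCs-1 and 16 UMIs in 12 other BMSCs, a ratio of 82.7 (49.6 to 148). Mmp13 came next, followed by Cp, which encodes the copper-carrying ferroxidase ceruloplasmin and was detected in 171 OLCs-1 (84.7%), at 43.0 (36.4 to 51.1). Mmp9, a gelatinase, had a ratio of 33.7 and Steap4, a metalloreductase, one of 23.8. Without the 25 aBMSC cells the ratio of Angpt4 was 129 (68.7 to 274) and that of Mmp9 446 (326 to 629), and beside Mmp13 these were the only ratios of the 20 highest genes and the 5 markers that moved by over 1.5 times. Further genes among the 20 highest were Tmem86a (20.8), Cxcl12, Spp1 (15.8), Lpl, Maf (14.6), Tnc, Vdr, Serpine2 (13.7), Mme (13.3), Ackr4 (11.7), Pi15 (10.9), Rspo3 (10.4), St3gal6 (10.4), Dlx5 (9.48) and Gpx3 (9.21). Serpine2 inhibits serine proteases, Mme is the membrane peptidase neprilysin, and Ackr4 is a scavenging receptor of lymphoid chemokines.

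OLCs-1 held 3.20% of the UMIs of the WT library but most UMIs of a few genes. Angpt4 led with 88.3% of its 214 library UMIs (83.2 to 92.3), followed by Podnl1, a leucine-rich repeat gene, with 86.5%, Cp with 78.3% and Mmp13 with 78.0%. Wisp2, a matricellular gene, had 69.4% of its UMIs in OLCs-1, the potassium channel gene Kcnk2 68.4% and Hp 65.8%. Ackr4 (56.2%), Pi15 (55.3%), Mme (52.6%), Sstr2 (48.5%), Serpine2 (47.7%) and Spp1 (42.4%) were also among the 15 highest, beside Cxcl12. The 50 UMIs of Sstr2 in OLCs-1 lay in few cells, with 100% of them in 10 cells and 25 in 1 cell.

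The 10 lowest ratios rested on few UMIs in OLCs-1. Cd34, a surface glycoprotein of progenitors, had 2 UMIs in OLCs-1 and 694 CPM in the other BMSCs. Ly6a, encoding Sca-1, had 1 UMI, Clec3b 4, Nov 6, Dpt 5, Tnxb 2, and Ssc5d, Tspan15 and Ly6c1 1 each. Mfap5, a microfibril gene, had none and was at least 115-fold lower, taking 3 counts over all OLCs-1 as the limit. In all, 25 genes with at least 200 UMIs over both sets had no UMI in OLCs-1.

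Scaling by TMM factors, which centre the bulk of genes, lowered every ratio to the other BMSCs by 0.28 on the log2 scale. With it, 506 genes were at least 2-fold higher and 1388 at least 2-fold lower, so that the higher genes made up 26.7% of the genes past 2-fold, compared with 44.4% without it. The Cxcl12 ratio was then 13.6 and the Kitl ratio 5.81. Ratios just above 1, such as that of Ibsp below, fell to or under 1 with this choice.

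Promoters of the leading genes, from RefSeq tables of GRCm38.p6, are shown because these genes were among the highest in OLCs-1. The 250 bases before each start site were searched on both strands for the RUNX motif (TGTGGT, or ACCACA in the other direction) and the AP-1 motif (TGANTCA), the letters that RUNX factors and Fos-Jun dimers prefer. Of the 20 genes with the highest ratios, 14 were found in the table with 20 promoters. The RUNX motif was present in 5 of the 20 (25%), compared with 14% of all 32851 promoters, and the AP-1 motif in 3 (15%), compared with 6.75%. For the 15 genes with the largest library shares, 17 promoters were found, of which 3 (17.6%) held the RUNX motif and 4 (23.5%) the AP-1 motif. A match is a description of letters and not a bound site. The sequences below are those before the start sites of Mmp13 (chr9:7272264-7272513), Angpt4 (chr2:151910957-151911206) and Cxcl12 (chr6:117168285-117168534), all on the plus strand, with motif matches in capitals.
Mmp13: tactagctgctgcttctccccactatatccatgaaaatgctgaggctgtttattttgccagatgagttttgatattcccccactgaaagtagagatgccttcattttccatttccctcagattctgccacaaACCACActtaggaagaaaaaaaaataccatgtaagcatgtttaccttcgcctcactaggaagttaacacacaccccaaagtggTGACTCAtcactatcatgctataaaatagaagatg
Angpt4: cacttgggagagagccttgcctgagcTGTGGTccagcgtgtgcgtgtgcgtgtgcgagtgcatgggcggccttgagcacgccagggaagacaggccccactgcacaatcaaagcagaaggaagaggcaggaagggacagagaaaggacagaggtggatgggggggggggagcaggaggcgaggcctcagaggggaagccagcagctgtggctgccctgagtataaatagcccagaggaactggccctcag
Cxcl12: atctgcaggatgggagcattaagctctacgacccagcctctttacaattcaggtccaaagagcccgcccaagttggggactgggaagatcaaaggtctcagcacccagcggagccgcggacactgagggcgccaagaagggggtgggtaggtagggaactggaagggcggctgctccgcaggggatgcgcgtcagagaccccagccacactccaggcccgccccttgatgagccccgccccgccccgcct
The Mmp13 promoter held a RUNX match that began 118 bases before the start site and an AP-1 match that began 35 bases before it. Angpt4 held a RUNX match 224 bases before its start, and neither motif was in the Cxcl12 window.

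Of 39 osteoblast and limb transcription factors with enough UMIs, 16 were at least 2-fold higher and 9 at least 2-fold lower in OLCs-1, with a median ratio of 1.21. Hey1, a Notch target, had a ratio of 43.7 (27.4 to 72.9). Runx2 and Sp7, which are required for osteoblast formation, had ratios of 6.27 and 3.72. The homeobox genes Dlx5, Dlx6 and Msx1 had ratios of 9.48, 8.12 and 9.45. Osr1 and Osr2, zinc finger factors of connective tissue, were the lowest at 0.0285 and 0.0235. Against OLCs-2 alone, 9 of 26 factors compared were at least 2-fold higher, among them Hey1, Dlx6 and Msx1, and 4 at least 2-fold lower. Runx2, Sp7 and Dlx5 lay within 2-fold of their OLCs-2 levels.

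Of 20 genes of mineralisation and bone matrix compared, 9 were at least 2-fold higher, among them Spp1 (osteopontin), Alpl, the phosphate carrier Slc20a2 (4.97), the pyrophosphate exporter Ank (4.00) and Phex (2.85). The 4 lower ones included the type I collagen genes Col1a1 (0.399) and Col1a2 (0.403) and Sparc, an acidic matrix protein (0.484). Pdpn, which marks early osteocytes and other mesenchymal cells, had a ratio of 0.0284. Ibsp, the bone sialoprotein gene, was at 5750 CPM and had a ratio of 1.20, which TMM scaling brought just under 1.

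Matrix genes were mostly lower. Of 29 collagen genes, 17 were at least 2-fold lower in OLCs-1 and 1 at least 2-fold higher, with a median ratio of 0.399. Col3a1, the collagen of loose connective tissue, had a ratio of 0.0794 and Col14a1, a fibril-associated collagen, one of 0.0339. The higher one was Col10a1, the collagen of hypertrophic cartilage, at 3.38, with 96.6% of its 179 UMIs in 10 cells and 97 in 1 cell. Of 45 glycoproteins and proteoglycans of the matrix, 25 were at least 2-fold lower and 5 at least 2-fold higher (Tnc, Srpx2, Gpc1, Olfml3 and Olfml2b), with a median of 0.426.

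Of 30 proteases and inhibitors compared, 8 were at least 2-fold higher and 7 at least 2-fold lower. Mmp13 and Mmp9 led, followed by Serpine2, Adamts9 (8.10), Mmp11 (4.21), Adam12 (2.36), Adamts3 (2.33) and Mmp14 (2.02). Ctsk, the collagen-degrading cathepsin of osteoclasts and fibroblasts, was lower at 0.448.

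Wnt pathway genes went both ways. Of 7 Wnt ligands compared, Wnt4 (4.03) and Wnt5b (3.98) were at least 2-fold higher and Wnt11, Wnt16, Wnt9a and Wnt2 at least 2-fold lower. Wif1 was the only 1 of 10 secreted antagonists that was at least 2-fold higher, and Sfrp1, Sostdc1, Sfrp2 and Dkk2 were at least 2-fold lower. Of 23 receptors and feedback targets, 6 were higher and 6 lower by this measure. Rspo3, a secreted enhancer of Wnt signalling, had a ratio of 10.4 (7.97 to 13.7), whereas its relative Rspo2 had one of 0.214. Axin2, a feedback target of the pathway, had 4 UMIs in OLCs-1 and a ratio of 0.539 (0.141 to 1.46).

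Among 27 BMP and TGF-beta genes, 3 were at least 2-fold higher and 11 at least 2-fold lower, beside 8.92% and 11.2% of all genes compared. Grem1, a secreted BMP antagonist, had the highest ratio at 13.7 (9.27 to 20.4), and Chrd, another antagonist, the lowest at 0.0778. In the IGF axis, 1 of 13 genes was at least 2-fold higher (Pappa) and 6 at least 2-fold lower. The counts of higher genes in the BMP and IGF lists were thus near the share over all genes. Of 31 vascular and axon guidance factors, 12 were at least 2-fold higher, among them Angpt4, Sema7a (19.8), Slit2 (5.88), Vegfc (3.50) and Vegfa (2.18), and 10 at least 2-fold lower, with Sema3c at 0.0135. Vegfa encodes the main growth factor of blood vessels and Vegfc that of lymphatic vessels. Of 26 adhesion and surface genes, 8 were higher by this measure, including the cadherins Cdh2 (4.76) and Cdh11 (3.39), and 6 were lower. None of 17 cell cycle genes was at least 2-fold higher and 2 were lower, in a comparison set that held the mitotic class. Of 10 mitochondrially encoded genes none passed 2-fold, with a median ratio of 1.44. Among 14 immediate early genes, Fosb was at least 2-fold higher and Atf3 at least 2-fold lower.

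OLCs-2 are the other osteolineage class. Of 4195 genes with at least 50 UMIs over both classes, 1143 (27.2%) were at least 2-fold higher in OLCs-1 and 255 (6.08%) at least 2-fold lower. The median ratio was 1.47, and Col1a1 alone stood at 157682 CPM in OLCs-2 and 20484 in OLCs-1. Of 12 niche ligands compared, 11 were at least 2-fold higher in OLCs-1, with a median ratio of 15.3. The minimum counts the UMIs of both classes together, so ligands found almost only in OLCs-1 passed it through OLCs-1. Such ligands could only count as higher, and the same holds for the other lists and for all genes. Igf1 had 433 UMIs, compared with 1 for OLCs-2, and Cxcl12 had 2647 and 13, a ratio of 170 (99.1 to 319). Kitl had a ratio of 12 (7.55 to 20.3) and Csf1 one of 18.6 (12.3 to 29.7). Of 17 leptin receptor stromal genes, 16 were at least 2-fold higher, and Pdgfrb had 115 UMIs against 1.

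Other genes among the 10 highest against OLCs-2 were Steap4 (207), Lpl (128), Limch1 (124), Mmp9 (106), Fhl2 (55.3), Islr (49.0), Col4a1 (37.7) and Pi15, which had no UMI in OLCs-2 and was at least 84.2-fold higher. The 10 lowest were Slc13a5, a citrate carrier of mineralising osteoblasts (0.00783), Col11a2 (0.0392), Pcsk6 (0.0662), Col22a1 (0.0690), Smpd3 (0.0758), Ifitm5 (0.0785), Col11a1 (0.113), Cthrc1 (0.118), Col1a1 (0.130) and Tmem119 (0.140). Smpd3 and Ifitm5 act in bone mineralisation. Of 15 genes of mineralisation and bone matrix, 9 were at least 2-fold lower in OLCs-1 and 4 at least 2-fold higher, and Ibsp had a ratio of 0.158. Alpl (1.20, 1.04 to 1.38) and Runx2 (1.13, 0.942 to 1.35) differed little between the classes. All 8 cell cycle genes past 2-fold of 12 compared were higher in OLCs-1, but in few cells, since 10 of the 202 OLCs-1 held 84.6% of the Ube2c UMIs, 64.4% of those of Top2a and 59.2% of those of Mki67.

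Against eBMSC-1, the largest stromal class, 799 of 7808 genes (10.2%) were at least 2-fold higher in OLCs-1 and 839 (10.7%) at least 2-fold lower. The osteolineage genes separated the classes, with Runx2 at 33.5 (23.6 to 49.1), Alpl at 41.8 (30.9 to 57.7) and Pth1r at 10.2 (8.01 to 13.1). Spp1 had 2901 UMIs, compared with 15 for eBMSC-1, and Vdr had 470 and 2. Of 16 cell cycle genes, 11 were at least 2-fold higher in OLCs-1 and 0 at least 2-fold lower, with a median ratio of 2.73. The study's grouping had set mitotic BMSCs apart from both classes. As given above, few of the OLCs-1 held most of the UMIs of Ube2c, Top2a and Mki67. Of 15 niche ligands, 7 were at least 2-fold higher and 5 at least 2-fold lower. Cxcl12 had a ratio of 13.7 (12.6 to 14.8), Kitl one of 6.63 and Lepr one of 3.47. Igfbp5, an IGF-binding protein gene, was level at 1.03 (0.992 to 1.08), whereas Igf1 (0.365), Ptn (0.152) and Col3a1 (0.0602) were lower. The levels of Alpl and Runx2 in OLCs-1 thus lay near those of OLCs-2, and that of Igfbp5 near that of eBMSC-1.

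The UMIs of some genes were unevenly spread over the 202 cells. The number of cells that held 50% of a gene's UMIs was 50 for Tnc, 45 for Cp, 29 for Cxcl12 and 24 for Mmp13, but 4 for Mmp9. For Mmp9, 79.7% of its 2548 UMIs lay in 10 cells, which held 54 to 473 each, and it was found in 90 of the other 192. Without these 10 cells the Mmp9 level was 765 CPM, 7.36 times that of the other BMSCs, in place of 33.7 times. The comparison set still held the aBMSC cells, and of its 530 Mmp9 UMIs only 39 lay outside them. The 7.36 thus rests on a comparison level set mostly by the aBMSC cells, and a ratio without both groups of cells was not computed.

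**Figure D3:**
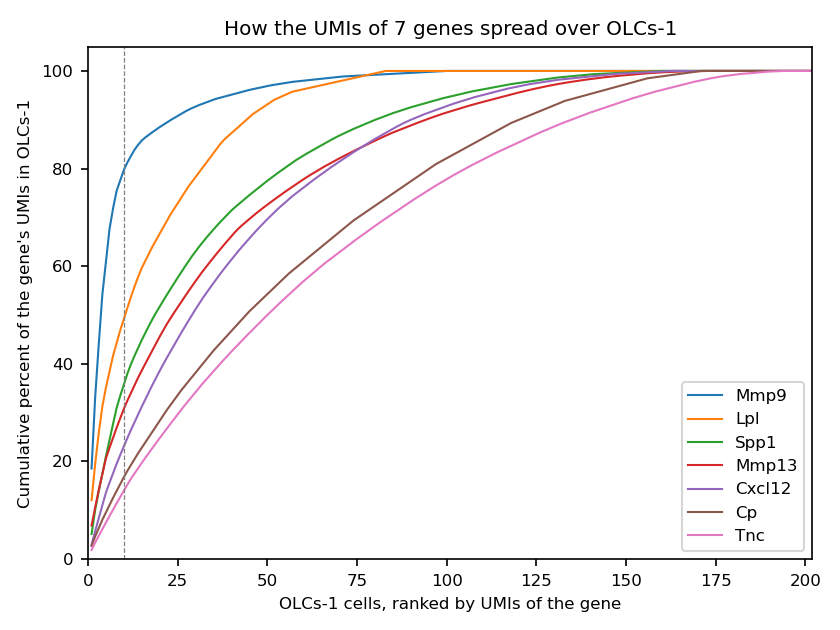
Cumulative percent of the UMIs of 7 genes over the 202 OLCs-1 (y axis), with cells ranked from the richest in each gene (x axis) and a dashed line at 10 cells. The curve of Mmp9 reaches 79.7% at 10 cells, whereas those of Tnc and Cp rise slowly over most cells.

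The Mmp9-rich cells, chosen by this gene after its values were seen, are described without a test. Their median was 5509.5 UMIs per cell, compared with 3336 in the other 192. They held 24736 Mmp13 CPM, compared with 7236, and Cxcl12 was found in all 10, at 2233 CPM compared with 3746. Alpl (135 compared with 713), Tnc (982 compared with 4708) and Col1a1 (2541 compared with 21864) were lower, and Limch1 had no UMI in them. Osteoclast genes stayed at or near 0 in the 10 cells, with no UMI of Acp5, Oscar, Ocstamp, Ptprc or Spi1, 1 of Atp6v0d2 and 4 of Ctsk.

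The level of Cxcl12 also varied within OLCs-1. Spearman correlations with Cxcl12 were computed across the 202 cells for 2848 genes detected in at least 20% of them, on log-normalised counts. They are a description over cells of 1 library that share scaling and depth, and Cxcl12 itself had a correlation of -0.14 with the UMIs per cell. The median over all genes was -0.01, 59 genes reached 0.3 and 8 were at -0.3 or below. The 8 highest were Igfbp4 (0.61), Igfbp5 (0.61), Igf1 (0.60), Fstl1 (0.58), Fth1 (0.57), Kitl (0.53), Tmsb4x (0.53) and Fbn1 (0.52). Fstl1 encodes a secreted glycoprotein, Fth1 the ferritin heavy chain, Tmsb4x an actin-binding peptide and Fbn1 the microfibril protein fibrillin. The 8 lowest were Creb3l1 (-0.39), Panx3 (-0.37), Col1a1 (-0.37), Col11a1 (-0.34), Cthrc1 (-0.34), Lox (-0.34), Col1a2 (-0.34) and Spp1 (-0.31). Creb3l1 is a transcription factor of matrix-secreting osteoblasts, Panx3 a channel protein of osteoblasts and hypertrophic chondrocytes, and Lox a collagen cross-linking enzyme. With cells thinned to 1000 UMIs all 16 kept their sign. The 8 positive values then lay between 0.35 (Fth1) and 0.60 (Igfbp5). The 8 negative ones lay between -0.34 (Col1a1) and -0.19 (Cthrc1), with Creb3l1 at -0.26, and only Col1a1, Spp1 and Panx3 were still at -0.3 or below.

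The cells were ordered by their Cxcl12 level and divided into 4 groups of 50 or 51 cells to show the sizes of these differences. From the lowest to the highest group, Cxcl12 was at 88.2, 1051, 4043 and 10828 CPM. Igfbp5 went from 1074 in the lowest to 9162 in the highest, Igf1 from 113 to 1435, Kitl from 63.7 to 786, and Fbn1 from 157 to 1342. Grem1 had no UMI in the lowest group and 325 CPM in the highest, and all 44 OLCs-1 with a Grem1 UMI had a Cxcl12 UMI. In the same order, Col1a1 went from 36108 to 7289, Ibsp from 11726 to 1298, Spp1 from 7235 to 1566, and Creb3l1 from 657 to 112. Runx2 varied less, at 319, 416, 485 and 399, as did Tnc, at 2990, 5238, 4890 and 4855. Osteolineage and Cxcl12 transcripts were present in the same cells, as Ibsp was found in 118 of the 163 OLCs-1 with Cxcl12 and in 26 of the 39 without.

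**Figure D4:**
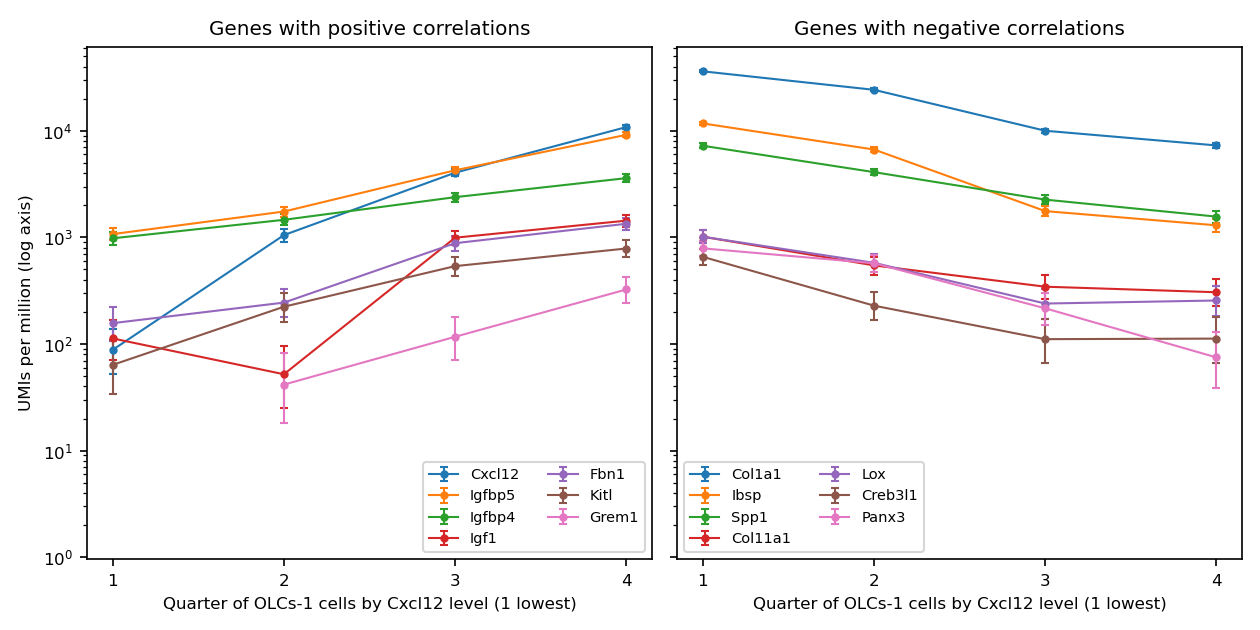
Level in CPM (log axis) of 14 genes in 4 groups of OLCs-1 ordered by Cxcl12 level, with 95% Poisson intervals as bars. On the left, each gene is higher in group 4 than in group 1, Igf1 dips in group 2, and Grem1 has no UMI, and so no point, in group 1. On the right, Col1a1 goes from 36108 in group 1 to 7289 in group 4.

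Markers of other cell types were summed in OLCs-1. Haematopoietic markers had 15 UMIs in OLCs-1, or 20.6 CPM (4.91 in the other BMSCs), with Ptprc, Spi1 and Cd52 at 0, and endothelial markers had 5, with Cdh5 and Kdr at 0. Erythroid markers had 7 UMIs, with Alas2 at 0, tendon markers 12, with Thbs4 at 0, and muscle markers 15, with Myod1 and Myog at 0. All 4 Schwann cell markers were at 0. The adipocyte genes Adipoq and Cfd were at 0 as well, but they were not detected in any cell of the WT library. Mural markers summed to 301 CPM, compared with 308 in the other BMSCs. Cartilage markers summed to 1075 CPM over 9 genes, compared with 1401 in the other BMSCs and 95958 in listed chondrocytes, of which only part of the list was held. The eBMSC markers summed to 1622 CPM, compared with 17146 in the other BMSCs. Osteoblast markers summed to 26691 CPM, compared with 56320, but Col1a1 made up 14905 of their 19421 UMIs in OLCs-1. Of the 5 osteoblast markers compared, Sp7 was at least 2-fold higher and Col1a1 at least 2-fold lower, with a median ratio of 1.02. Markers of hypertrophic chondrocytes summed to 1374 CPM, compared with 483 in the other BMSCs, 2966 in OLCs-2 and 11502 in chondrocytes, and all 4 of them that were compared (Pth1r, Col10a1, Mef2c and Panx3) were at least 2-fold higher than in the other BMSCs. Osteoclast markers summed to 3586 CPM, compared with 288 in the other BMSCs and 117 in OLCs-2. Mmp9 made up 2548 of these 2609 UMIs, and Oscar and Ocstamp were at 0. Of the 202 OLCs-1, 10.4% were among the 5% of library cells with the highest Scrublet doublet scores, compared with 5.39% of the other BMSCs. The part of doublets was not tested beyond leaving these cells out, which gave a Cxcl12 ratio of 17.1.

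No cell list was used for the Bmx-CreER Wls library, so cells of both libraries were assigned to the nearest average profile of the listed WT classes, over 2875 variable genes without cell cycle genes and the niche ligands. This placed 185 of the 202 listed OLCs-1 (91.6%) in their own class when each was held out, and added 6 other BMSCs and 10 cells not listed as BMSCs. In the WT library 201 cells (3.50%) were assigned to OLCs-1, and in the Bmx-CreER Wls library 97 (1.47%). The share cannot be told apart from differences in dissection, depletion and capture between the libraries.

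Leading genes of OLCs-1 were also detected in the assigned cells of the second library. Mmp13 was found in 83 of the 97 assigned cells (85.6%) at 11274 CPM, Cp in 82 and Cxcl12 in 74 (76.3%). Mmp9 was again uneven, with 88.8% of its 1683 UMIs in 10 cells. Relative to the assigned WT cells, the level of Angpt4 was lower, at 0.489 (0.352 to 0.669). Limch1 was at 0.578 (0.456 to 0.728), Wif1 at 0.752 and Tnc at 0.793. Cp (0.909), Alpl (0.917) and Mmp9 (1.01) were nearer 1, and Mmp13 (1.19) and Lepr (1.58) were higher. The assignment used the variable genes, so these levels are no independent check of the class. The correlation of Cxcl12 with Igfbp4 was 0.65, with Igf1 0.57, with Igfbp5 0.60 and with Kitl 0.48 over these 97 cells. That with Spp1 was -0.55 and with Panx3 -0.32, whereas Col1a1 (-0.01) and Col1a2 (-0.01) showed none. In the 201 assigned WT cells, Col1a1 was at -0.19, so the correlation of type I collagen with Cxcl12 depended on which cells were counted as OLCs-1.

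Between the libraries, 56 of 4356 genes (1.29%) were at least 2-fold higher and 42 (0.964%) at least 2-fold lower in the Bmx-CreER Wls cells, with a median ratio of 0.994. Cartilage genes were among the higher ones. Of 14 markers of chondrocytes and hypertrophic chondrocytes, 10 were compared, of which 6 were at least 2-fold higher (Comp 5.36, Hapln1 3.50, Col2a1 2.61, Col9a1 2.58, Acan 2.17 and Col10a1 2.15) and none at least 2-fold lower. Chondrocyte markers summed to 3582 CPM in the assigned Bmx-CreER Wls cells, 1458 in the assigned WT cells and 1075 in the listed OLCs-1, and hypertrophic markers to 7174, 3971 and 1374. In the Bmx-CreER Wls cells, 10 cells held 82.9% of the chondrocyte marker UMIs and 88.3% of the hypertrophic ones. In the assigned WT cells, 10 of 201 held 50.7% and 74.6%. The assigned cells of both libraries thus held cartilage transcripts above the level of the listed OLCs-1. None of the 13 niche ligands compared passed 2-fold. Cxcl12 had a ratio of 0.738 (0.688 to 0.791), Kitl one of 0.573 (0.446 to 0.730), Igf1 one of 0.575 (0.470 to 0.699), Fgf7 one of 0.561 (0.353 to 0.865) and Spp1 one of 1.47 (1.40 to 1.54). As a mean over cells the Cxcl12 ratio was 0.915, and with cells thinned to 1000 UMIs it was 0.936 (0.825 to 1.06). Without the 10 assigned cells of each library that held most cartilage marker UMIs, it was 0.805 (0.750 to 0.864), that of Kitl 0.625 (0.485 to 0.797) and that of Spp1 1.30 (1.23 to 1.38). The size of the Cxcl12 difference thus depended on which cells were counted and how they were weighted. With 1 library each, genotype cannot be told apart from library, litter and tamoxifen.

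**Figure D5:**
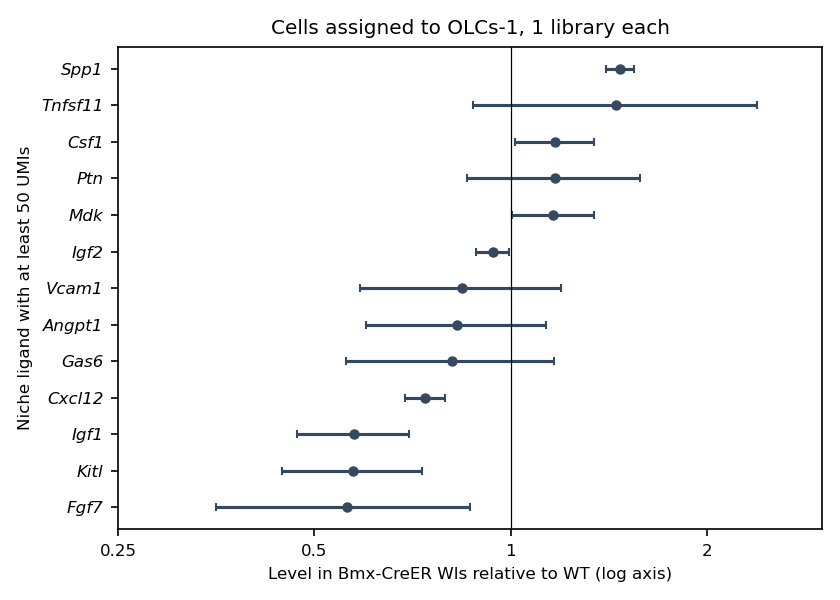
Ratio of the level in the Bmx-CreER Wls library to that in the WT library (x axis, log scale) for 13 niche ligands in cells assigned to OLCs-1, with 95% counting intervals as bars. The ratios lie between 0.561 for Fgf7 and 1.47 for Spp1, and 5 of the 13 intervals hold 1.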

How the data were processed

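The authors deposited raw counts of UMIs, by gene and barcode and not normalized, for 1 WT and 1 Bmx-CreER Wls library. Their processing notes name bcl2fastq 2.19.1.403, UMI-tools 1.0.1, STAR 2.7.1a and featureCounts 1.6.4 with mm10. The study's filter was applied (over 200 and below 5000 genes, below 30% mitochondrial UMIs), and doublets stayed in. The study's cell list, held only in part for chondrocytes, numbers the E18.5 BMSC clusters 0 to 6, while the study names 6 classes. The names used here were read from cell numbers and marker genes, with clusters 0 and 1 both taken as aBMSC, and are thus inferred. The members and gene lists were chosen with earlier results of these data known. Named genes are the markers, the 20 highest and 10 lowest ratios to the other BMSCs, 10 each against OLCs-2 (at least 200 UMIs), the 15 largest library shares (at least 100 UMIs), the 8 highest and 8 lowest correlations with Cxcl12, and members of the fixed lists. Some genes under these rules are not reported here. Levels have 95% Poisson intervals, shares Clopper-Pearson ones and ratios exact conditional binomial ones. A count of 0 allows 3 counts. Genes needed 50 UMIs over both sets for a ratio. The scripts were tested on simulated data. Python 3.11.15, scipy 1.17.1, scanpy 1.11.5, scikit-learn 1.9.0 and edgeR 4.0.16 (TMM only) were used. Positions come from the GENCODE annotation of GRCm38.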

Additional observations from a re-analysis of the deposited data

How the results depend on the processing

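The share of OLCs-1 among listed BMSCs stayed within its interval under every alternative run for it. No paired analysis was possible because each condition has 1 library and no result comes from a test. For Cxcl12 the ratio to the other BMSCs was 13.6 with TMM factors, 15.3 in cells thinned to 1000 UMIs, 19.6 in cells nearest to their own listed class and, added after seeing the data, 17.7 without the aBMSC cells (as were the Mmp13, Mmp9 and Angpt4 ratios without them). The Kitl ratio was 5.81 with TMM factors. The share of OLCs-1 with a Cxcl12 UMI was 66.5% after thinning and 86.5% in cells nearest to their own class. Genes at least 2-fold higher numbered 506 with TMM factors, 402 after thinning, 270 with a minimum of 200 UMIs and 1634 with a minimum of 10, and genes at least 2-fold lower 518 and 1752 with these minimums, since fewer or more genes were compared. The ratio of Cxcl12 between the libraries was 0.686 with at least 1000 UMIs and under 10% mitochondrial share, 0.915 as a mean over cells, 0.936 after thinning and, added after seeing the data, 0.805 without the 10 assigned cells of each library with most cartilage marker UMIs; the cause was not tested. None of these values changed direction, but the interval of the thinned Cxcl12 ratio between the libraries (0.825 to 1.06) held 1. Of the 51 values computed under alternatives, 34 stayed within the interval of the reported value or, for counts of genes, within 1.5 times. Leaving out the 10 cells with most Mmp9 was added after seeing the data. It moved neither the Cxcl12 and Kitl ratios to the other BMSCs nor the counts of genes past 2-fold beyond those limits. It was not run for the other results. The ratio of Mmp9 itself was 7.36 without them, with the aBMSC cells kept in the comparison set. Depth limits genes such as Il7, with 15 UMIs in all OLCs-1.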
